A study of Mus musculus with 4 samples.

Results

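The cells described here came from the hypothalamus of mice at embryonic day 14 (E14) and on the day of birth (P0). They are the 26422 cells, of 43261 in the whole series, whose names in the deposited count table carry run number 2 at these ages: 16794 cells of the E14 sample and 9628 of the P0 sample. Cells with run number 1 (356 at E14 and 2452 at P0) were left out and serve only as an alternative. All UMIs (unique molecular identifiers, each standing for 1 captured RNA molecule) of a gene were summed over the cells of a run and scaled to a common total of 1000000, which gives CPM.

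Both samples came from C57BL/6J mice of the genotype Rax-CreERT2::Ai14. Activity of Rax, a gene of the neuroepithelium that builds the hypothalamus, drives a Cre recombinase in these animals that works only with tamoxifen, and recombined cells and their descendants make the red protein tdTomato. A single dose of tamoxifen had been given on embryonic day 9 per the design text, or 9.5 per the protocol, and live cells positive for tdTomato were collected by flow sorting for 10x Genomics capture with version 3 chemistry. Another label gives the age of the E14 sample as E14.5. The number of animals pooled is not given in the sources used here. The labels do not say what a run number stands for, such as a library, a litter or a date. Each run was treated as 1 library, so there is no replicate, no test was made, and every difference is one between these 2 runs, in which age cannot be told apart from the library. Intervals are exact 95% intervals for counting error only.

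Between these ages the hypothalamic germinal zone passes from making neurons to making astrocytes and oligodendrocyte precursors. The neurons already born extend axons, gain ion channels and receptors, and begin to make the peptide hormones for which this brain region is known. Notch signalling, in which a ligand on 1 cell releases the intracellular part of a receptor on its neighbour, keeps progenitors undifferentiated through the Hes and Hey repressors and later favours glial fates.

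The E14 run held 159172980 UMIs with a median of 8448 per cell, and the P0 run 108084013 UMIs with a median of 10053. Cells had 2001 to 7998 genes each, and mitochondrial transcripts made up 2.63% and 2.66% of UMIs. A tdTomato UMI was found in 95.2% of E14 cells and 96.3% of P0 cells. The runs differed in the sexes they held: cells in which Xist was seen but no Y-linked gene (Xist-marked) were 70.7% at E14 and 26.5% at P0, and cells in which a Y-linked gene was seen but not Xist (Y-marked) were 13.7% and 51.8%. The doublet caller Scrublet marked 5.78% of E14 and 1.17% of P0 cells, and 43 cell barcodes occurred in both runs. Markers of most kinds of cell outside the neural lineage were low. The 10 microglial genes summed to 0.302 CPM at E14 and 2.58 at P0, the 8 endothelial genes to 3.14 and 8.96, and the 7 mural genes to 1.35 and 7.75. None of these genes reached 10 CPM, nor did any of the 7 pituitary genes in the table. Of 8 fibroblast genes only Prrx1 did, a homeobox gene, at 3.29 and 24.9 CPM, and the list summed to 6.53 and 36.7. The 9 erythroid genes summed to 6.77 CPM at E14 and 63.9 at P0, and 2 of them reached 10 CPM, at P0 only. The part of any such cells or of free RNA in the results was not tested.

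The makeup of the labelled cells differed between the runs. Cells were placed by 5 neuronal genes (Tubb3, Stmn2, Elavl3, Elavl4 and Myt1l) and 7 genes of progenitors and glia (Sox2, Sox9, Hes1, Hes5, Slc1a3, Ptprz1 and Fabp7). Among cells with at least 5 UMIs of these genes, at least 80% neuronal UMIs put a cell in the neuron gate and at most 20% in the progenitor and glia gate. The neuron gate held 14571 cells or 86.8% (86.2 to 87.3%) of the E14 run and 5349 cells or 55.6% (54.6 to 56.6%) of the P0 run. The progenitor and glia gate held 514 cells or 3.06% (2.81 to 3.33%) at E14 and 3082 cells or 32.0% (31.1 to 33.0%) at P0. Cells between the gates were 10.2% and 12.4%. These gates are ranges of a score and not cell types. A change in the level of the gate genes per cell would also move these shares, and its part was not tested. For the progenitor and glia gate 210 E14 cells and 236 P0 cells lay within 5 percentage points of the limit, on either side. Median depth inside the neuron gate was 8665 UMIs at E14 and 10923 at P0, and inside the other gate 8272.5 and 9146.5. In a sum over all cells, more cells of a kind and more RNA of a gene per cell cannot be told apart, so values of most gene groups are given for all cells and inside at least 1 gate, where gate genes were left out.

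A gene was called different when it reached 10 CPM in the higher run and its ratio was at least 2 with 1 CPM added on both sides. Of 10086 genes with at least 10 CPM in either run, 1467 or 14.54% were called higher at P0 and 248 or 2.46% higher at E14. A gene under 10 CPM in 1 run was compared only because it was high in the other, so its call was in part fixed by that minimum. Of the calls toward P0, 889 were of this kind, and of those toward E14, 86. Of the 8357 genes at 10 CPM or more in both runs, 578 or 6.92% were called higher at P0 and 162 or 1.94% at E14. Where it bears on a list below, the count over its members at this level in both runs is given too. The median gene was 0.19 higher at P0 on the log2 scale, and list medians below are read against that value. With the runs scaled by the median ratio of genes in place of total UMIs, 991 genes were higher at P0 and 416 at E14, so that the share of calls on the P0 side was 70.4% in place of 85.5%. Inside the neuron gate 960 of 9525 genes (10.1%) were higher at P0 and 255 (2.68%) at E14, and inside the progenitor and glia gate 1830 of 10208 (17.9%) and 533 (5.22%). With 10 CPM in both runs these were 443 and 152 of 8161 genes in the neuron gate and 833 and 377 of 8315 in the other. Of the all-cell calls for P0 that could be tested in the neuron gate, 694 of 1002 were also called there, and in the progenitor and glia gate 868 of 1274. For the E14 side these were 173 of 243 and 128 of 188. Both gates shared 446 genes called higher at P0, which is 46.5% of the neuron calls and 24.4% of the progenitor and glia calls. At the threshold, Ttc37 was the last gene inside at a log2 ratio of 1.0004 and Pomt2 the first outside at 0.9997.

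Of the 12 genes with the largest ratios toward P0, 4 are in the astrocyte list: Apoe, Slc4a4, Sparcl1 and Aqp4. Apoe, the lipid carrier that astrocytes secrete, had 1231 UMIs or 7.73 CPM (7.31 to 8.18) at E14 and 187729 UMIs or 1737 CPM (1729 to 1745) at P0, a ratio of 225 (212 to 238). Its UMIs were found in 21.8% of E14 and 97.6% of P0 cells of the progenitor and glia gate, and, as a background, in 4.06% and 49.3% of the neuron gate. With each cell thinned to 2500 UMIs these shares were 8.56% and 89.9%, and 1.21% and 15.1%. The bicarbonate transporter Slc4a4 went from 1.34 to 210.0 CPM, the matrix protein Sparcl1 from 4.25 to 345, and the water channel Aqp4 from 0.264 to 45.3. Also among the leading 12 were the receptor activity modifier Ramp1 (0.490 to 85.7 CPM), the GABA transporter Slc6a11 (2.53 to 124) and the glutamate transporter Slc1a3 (12.2 to 455). The proteoglycan gene Bcan, the precursor factor Olig1, Cmtm5 and Pla2g7 were also among them, with P0 levels of 42.3 to 159 CPM. None of the 12 passed 12.2 CPM at E14.

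The 12 largest ratios toward E14 formed a different group. Hsd11b2, which encodes the enzyme that inactivates glucocorticoids, fell from 17.0 to 0.657 CPM (2699 and 71 UMIs), a ratio of 25.8 (20.4 to 33.2) in favour of E14. The neurogenic factor Neurod2 fell from 28.8 to 2.40 CPM, and the homeobox gene Otp, which specifies peptide-secreting neurons of the hypothalamus, from 419 to 61.0. Phf21b fell from 57.0 to 9.34 CPM. Among the 12 were 4 histone genes, Hist2h3c2 (14.9 to 1.12 CPM), Hist1h2ac (34.3 to 3.96), Hist1h1c (167 to 24.9) and Hist1h2bc (319 to 49.0). The rest were the ubiquitin ligase genes Asb2 and Trim17, the heme-degrading enzyme gene Hmox1 and the transporter gene Slc16a6. In the runs numbered 1, 7 of these 12 went the other way: Asb2, Trim17, Hmox1, Slc16a6, Hist1h2ac, Hist1h1c and Hist1h2bc. Asb2 and Trim17 were at most 1.07 CPM there, so their order rests on few UMIs. Slc16a6, for one, stood at 0.511 CPM in E14 run 1 against 49.2 in run 2, and at 5.18 in P0 run 1. Hsd11b2 had 23.0 and 0.901 CPM in the runs numbered 1, close to its run 2 values.

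**Figure D1:**
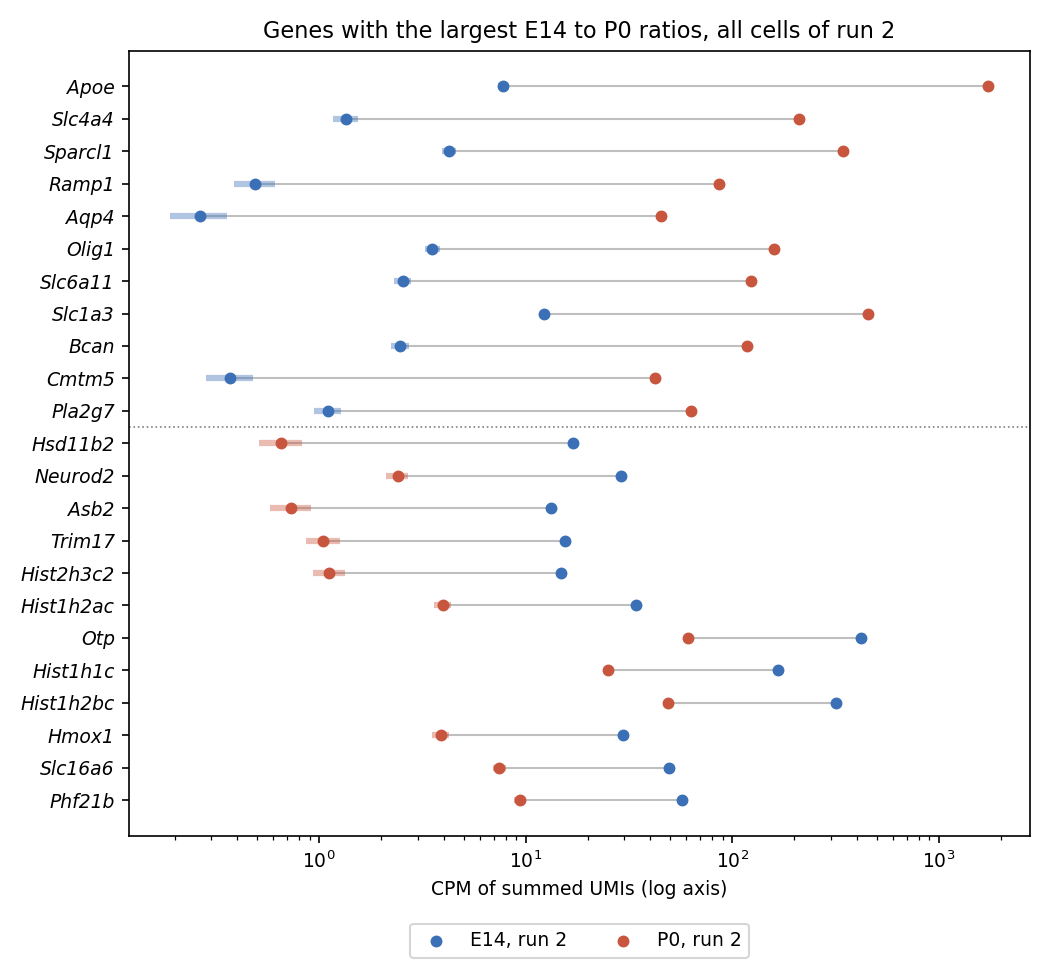
CPM of summed UMIs, on a log axis, of 11 of the 12 genes with the largest ratio toward P0 (above the dotted line) and the 12 with the largest ratio toward E14 (below it), in all cells of run 2. Points are the E14 and P0 runs and the pale bars are exact 95% counting intervals, so a reader sees that Apoe spans 7.73 to 1737 CPM while Hist1h2bc spans 319 to 49.0.

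Many genes of astrocytes and oligodendrocyte precursors were higher at P0. Of 18 tested astrocyte genes 16 rose and 0 fell, with a median log2 ratio of 3.85, and inside the progenitor and glia gate 17 of 19 rose with a median of 3.62. Of the members at 10 CPM in both runs 3 of 5 rose over all cells and 11 of 13 in the gate. Gfap, the intermediate filament of mature astrocytes, had 3 UMIs in the whole E14 run and 1865 at P0, where it reached 17.3 CPM. Of 11 genes of oligodendrocyte precursors 8 reached 10 CPM and rose, 6 of them from under 10 CPM at E14, so that their count supports nothing. Their growth factor receptor gene Pdgfra went from 0.886 to 26.7 CPM, a ratio of 30.2 (25.5 to 36.01), the proteoglycan gene Cspg4 from 0.182 to 14.7, and the lineage factors Olig1 and Olig2 from 3.52 to 159 and from 11.24 to 73.1. Only 3 members had 10 CPM in both runs inside the progenitor and glia gate, and they rose there, Pdgfra from 10.2 to 84.4 CPM. Myelin genes were low: Mbp stood at 13.9 and 36.9 CPM and Cnp at 20.9 and 48.8, and 2 of 3 tested oligodendrocyte genes rose.

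Some genes of the ventricular lining were higher at P0. Of 6 tested tanycyte genes (tanycytes are the glia of the floor of the third ventricle) 4 rose, with a median of 1.66, and 2 of 3 at 10 CPM in both runs. In the progenitor and glia gate 4 of 7 rose and 1 fell, or 2 and 0 of 4 with 10 CPM in both runs. Over all cells Crym rose from 2.19 to 23.2 CPM and the growth factor gene Ptn from 273 to 1708. Rax, whose promoter drove the label, went from 12.2 to 27.2 CPM over all cells, while inside the progenitor and glia gate it stood at 60.9 and 63.0. Of 9 ependymal genes 4 reached 10 CPM, at P0 only, so that no count is read. The cilium genes Dynlrb2 and Pifo went from 0.760 to 22.2 and from 0.647 to 19.3 CPM. The ciliogenic factor Foxj1 had 50.1 CPM at E14 and 54.4 at P0 inside the progenitor and glia gate, a difference that was not called, whereas Dynlrb2 rose there from 6.47 to 64.9.

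Radial glia genes split inside the gate. Over all cells 9 of 16 tested members rose and 0 fell, with a median of 2.14. Tnc, a matrix glycoprotein gene, went from 0.591 to 43.5 CPM, Mfge8 from 11.96 to 296, and the brain lipid binding protein gene Fabp7 from 231 to 3935. Inside the progenitor and glia gate, where 12 were tested without the gate genes, 4 rose and 3 fell and the median was -0.35. Tnc rose there from 11.7 to 142 CPM and Mfge8 from 173 to 947. The intermediate filament genes Nes and Vim fell there, from 433 to 141 and from 4181 to 1564 CPM, although over all cells neither was called (Nes 37.6 and 50.3, Vim 488 and 554). Nes and Vim, like Rax above and the other genes outside the naming rule, were singled out after their values were seen.

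Targets, receptors and a modifier of the Notch pathway were called higher at P0 over all cells. Of 21 tested members 11 rose and 1 fell over all cells, beside 14.54% and 2.46% of all tested genes. The median was 1.21, and of 11 at 10 CPM in both runs 3 rose, beside 6.92% of all genes at that level. The RefSeq promoters of the repressor genes Hes5 and Hey2 are shown because both have matches to the core letters bound by RBPJ, the DNA-binding partner of Notch. The lines give 250 bases before and 10 after the start site in build GRCm38.p6, 5′ to 3′ on the gene's strand, and capitals mark TGGGAA on either strand. Hes5 lies at chr4:154960673-154960932 on the plus strand and Hey2 at chr10:30842774-30843033 on the minus strand.
Hes5: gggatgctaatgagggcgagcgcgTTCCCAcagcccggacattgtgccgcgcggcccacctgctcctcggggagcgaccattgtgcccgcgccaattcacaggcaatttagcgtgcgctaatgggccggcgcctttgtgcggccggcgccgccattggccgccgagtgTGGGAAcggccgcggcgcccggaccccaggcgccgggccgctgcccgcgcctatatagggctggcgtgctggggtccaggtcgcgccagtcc
Hey2: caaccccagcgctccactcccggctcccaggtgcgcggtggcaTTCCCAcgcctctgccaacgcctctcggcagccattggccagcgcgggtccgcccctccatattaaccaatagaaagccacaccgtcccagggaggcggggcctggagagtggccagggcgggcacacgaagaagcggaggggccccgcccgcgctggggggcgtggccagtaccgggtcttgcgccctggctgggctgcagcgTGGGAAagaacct
Counted to their first base, the matches lie 226 and 82 bases before the start site in Hes5 and 207 and 3 bases before it in Hey2. The last of these runs across the start site. In windows of 300 bases (250 before and 50 after the start), 6 of 19 Notch list genes or 31.6% held the letters, beside 25.7% of 7753 tested genes, so the match describes these promoters and does not set the list apart.

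Among the targets, Hes5 had 14.49 CPM (13.9 to 15.1) at E14 and 234 (231 to 237) at P0, a ratio of 16.1 (15.5 to 16.9). Hes1 went from 5.43 to 88.7 CPM and Hey2 from 0.955 to 19.6. Id1, a helix-loop-helix inhibitor gene that is also in the list, went from 8.40 to 100.2. The fringe glycosyltransferases, which tune the response of the receptors to their ligands, moved in opposite directions. Lfng rose from 3.52 to 41.8 CPM and Mfng fell from 41.3 to 9.16. The receptors Notch1, Notch2 and Notch3 rose over all cells, from 22.9 to 73.2, from 4.12 to 18.9 and from 3.07 to 19.9 CPM. The ligands Dll1 (21.8 and 15.5 CPM) and Dll3 (39.3 and 19.9) were not called.

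In the progenitor and glia gate 4 of 20 tested Notch members rose and 1 fell, beside 17.9% and 5.22% of all genes tested there. The median was 0.21 beside 0.17 for all genes, so no group result is read inside the gate. Receptor levels in CPM differed little, with Notch1 at 221 and 209 CPM, Notch2 at 59.9 and 56.2 and Notch3 at 49.0 and 62.4. Hey2 rose there from 12.5 to 62.6 CPM, a ratio of 5.00 (3.87 to 6.58), Lfng from 50.7 to 131 and Id1 from 103 to 309. Hey1 stood at 40.1 and 36.1. Mfng fell from 60.9 to 4.14 CPM, a ratio of 14.7 (11.9 to 18.2) in favour of E14. Hes1 and Hes5 helped to set the gate, so their levels inside it are not read.

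The list of Hedgehog, Wnt, FGF and BMP genes had 14 of 22 tested members higher at P0 and 1 higher at E14. Of all tested genes 14.54% and 2.46% were. The list median was 1.26, and of 8 at 10 CPM in both runs 2 were higher at P0, beside 6.92% of all genes at that level. The members named next as higher at P0 all belong to the FGF pathway. Each was under 10 CPM at E14, so its call was in part fixed by the minimum. The ETS factors Etv4 and Etv5 went from 0.521 to 16.2 and from 1.24 to 17.4 CPM, the receptor Fgfr3 from 4.50 to 36.8 and the feedback inhibitor Spry2 from 7.87 to 43.8. The ligand Fgf15 fell from 16.7 to 2.23 CPM. In the gate of progenitors and glia 11 of 30 rose and 4 fell, beside 17.9% and 5.22% of genes tested there, with a median of 0.46. With 10 CPM in both runs 5 of 20 rose and 2 fell in that gate. There Spry2 rose from 15.9 to 123 CPM and Etv4 from 6.26 to 51.7, while Fgfr3, at 67.2 and 118, was not called. Fgf15 fell there from 95.1 to 5.19, a ratio of 18.3 (15.3 to 22.1). The ligand and the feedback inhibitor thus moved in opposite directions in the same gate.

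In run 2 some mitosis genes were called higher at P0 over all cells and some lower at P0 inside the gates. Of 19 tested mitosis genes 11 rose over all cells and 0 fell, beside 14.54% and 2.46% of all tested genes, with a median of 1.03. Of 17 at 10 CPM in both runs 9 rose. Inside the progenitor and glia gate 0 of 25 rose and 9 fell, beside 17.9% and 5.22% of genes tested there, with a median of -0.92. Inside the neuron gate 0 of 5 rose and 4 fell, beside 10.1% and 2.68% of genes there. Of these 4, 3 went from 10 CPM or more at E14 to less at P0. The promoters of the proliferation antigen gene Mki67, the spindle midzone gene Prc1 and the DNA methylation maintenance gene Uhrf1 are shown because they carry the letters of cell cycle elements. Capitals mark TTTGAA (the cell cycle genes homology region, CHR) on either strand in Mki67 and Prc1, and the E2F letters GCGGGAA on either strand in Uhrf1. The lines have the same span and build as above. Prc1 and Uhrf1 have 2 RefSeq windows each, of which only the first listed is shown, and distances refer to its start site. Mki67 lies at chr7:135716370-135716629 on the minus strand, Prc1 at chr7:80294201-80294460 on the plus strand and Uhrf1 at chr17:56303087-56303346 on the plus strand.
Mki67: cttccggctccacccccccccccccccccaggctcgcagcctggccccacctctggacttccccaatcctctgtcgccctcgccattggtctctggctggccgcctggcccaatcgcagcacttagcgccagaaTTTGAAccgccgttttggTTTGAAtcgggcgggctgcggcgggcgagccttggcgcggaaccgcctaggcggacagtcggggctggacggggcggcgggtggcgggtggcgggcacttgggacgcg
Prc1: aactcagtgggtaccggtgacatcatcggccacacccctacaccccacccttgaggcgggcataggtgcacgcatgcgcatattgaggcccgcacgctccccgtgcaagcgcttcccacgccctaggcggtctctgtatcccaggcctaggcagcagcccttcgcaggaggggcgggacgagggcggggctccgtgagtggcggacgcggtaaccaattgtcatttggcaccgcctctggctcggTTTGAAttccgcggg
Uhrf1: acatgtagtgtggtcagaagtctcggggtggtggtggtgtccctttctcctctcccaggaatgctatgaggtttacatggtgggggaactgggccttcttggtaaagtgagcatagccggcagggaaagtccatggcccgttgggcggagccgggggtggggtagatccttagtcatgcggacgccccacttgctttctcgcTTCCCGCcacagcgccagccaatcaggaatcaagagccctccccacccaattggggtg
Counted in the same way, CHR letters lie 116 and 98 bases before the start in Mki67 and 5 bases before it in Prc1, where the match reaches the start site. They occurred in the windows of 15 of 21 mitosis genes or 71.4%, beside 13.3% of tested genes and 20.2% of all 27025 genes with a window. The letters CCAAT occurred in 18 of 21 or 85.7%, beside 43.5% of tested genes. The E2F letters occurred in 8 of 22 replication genes or 36.4%, beside 9.97% of tested genes. A longer form with 1 more G before them had been searched first, and it was shortened after the windows had been seen. The longer form occurred in 4 of 22 or 18.2%, beside 4.88% of tested genes, and Uhrf1 holds it too. No match in capitals overlaps a match to the letters of RBPJ, CHR or E2F other than its own.

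Mki67 had 13.3 CPM (12.7 to 13.9) at E14 and 63.9 (62.4 to 65.4) at P0 over all cells. Inside the progenitor and glia gate it stood at 169 and 201 CPM, a difference that was not called. Its UMIs were found in 41.1% of E14 and 19.01% of P0 cells of that gate (23.7% and 13.1% thinned to 2500 UMIs), beside 1.90% and 1.22% of neuron-gated cells. Share and level went in different directions, so no order is read from the share. Prc1 went from 13.5 to 50.2 CPM over all cells and stood at 168 and 149 inside the gate. The mitotic motor gene Kif11 and the spindle gene Hmmr rose over all cells, from 6.21 to 21.5 and from 4.76 to 20.2 CPM, and stood at 72.2 and 66.0 and at 65.3 and 63.3 inside the gate. The genes that led the fall inside the gate were the mitotic cyclins Ccnb2, from 152 to 42.8 CPM, and Ccna2, from 188 to 55.2, the chromatin protein gene Hmgb2, from 2285 to 744, and Cdc20, an activator of the anaphase complex, from 158 to 52.2. The last 4 were not called over all cells.

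DNA replication genes were lower at P0 inside the progenitor and glia gate. Over all cells 1 of 18 tested members rose, Gins2, and 1 fell, Mcm2, beside 14.54% and 2.46% of all tested genes, with a median of 0.02. Among cells of the progenitor and glia gate 21 of 28 fell and 0 rose, beside 5.22% and 17.9% of genes tested there, with a median of -1.26. With 10 CPM in both runs 17 of 22 fell in that gate. The nucleotide reductase subunit gene Rrm2 fell there from 213 to 51.6 CPM, a ratio of 4.12 (3.81 to 4.46) in favour of E14, and the helicase subunit genes Mcm2 and Mcm3 from 86.4 to 28.5 and from 122 to 49.1. The sliding clamp gene Pcna fell from 147 to 71.1 CPM and Uhrf1 from 95.4 to 35.3. The all-cell rise of mitosis genes was not seen in the runs numbered 1. There the mitosis median was -1.50 and the replication median -1.35, and Mki67 stood at 23.2 and 17.0 CPM and Top2a at 123 and 31.8. The part of the gate makeup in the all-cell values of run 2 was not tested further.

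**Figure D2:**
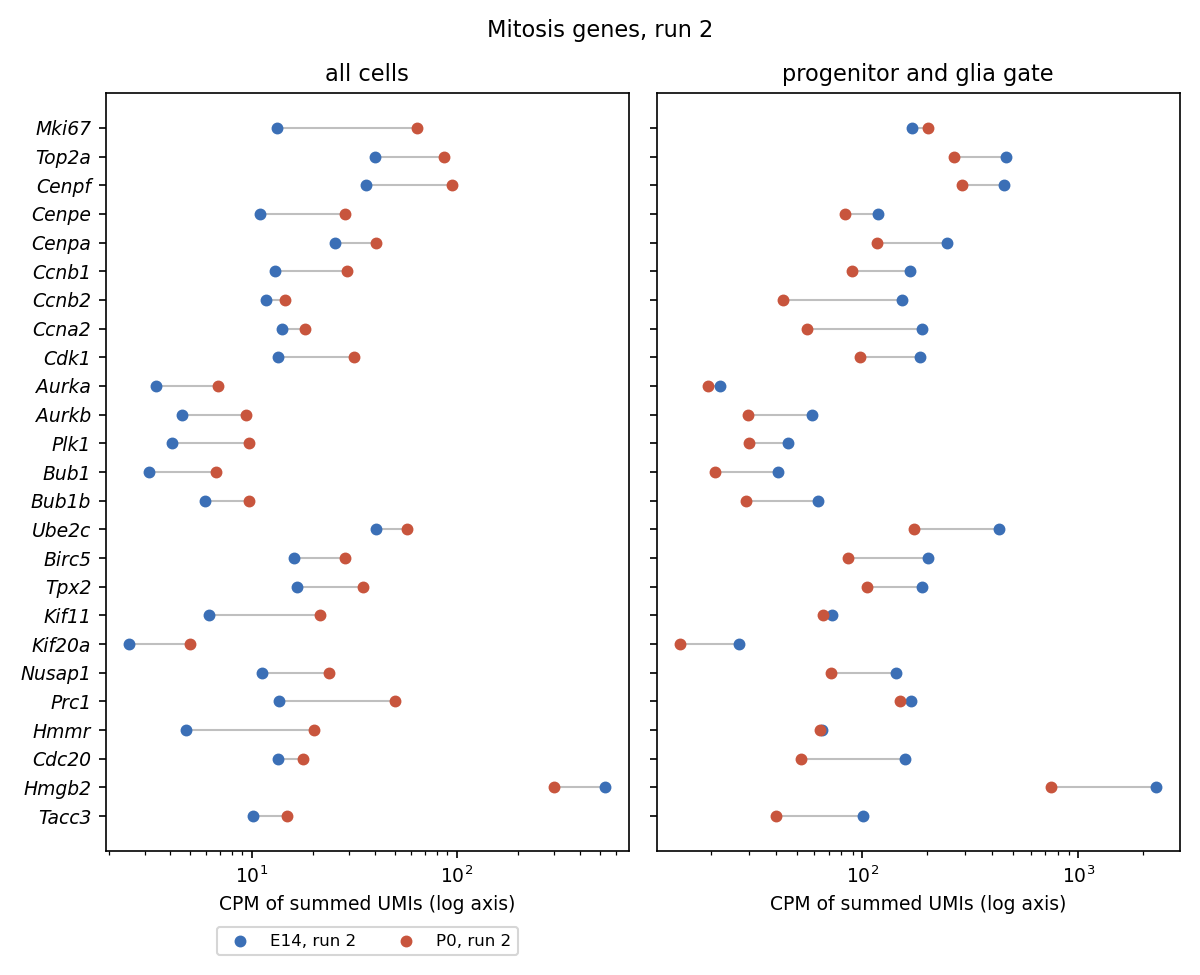
CPM of summed UMIs, on log axes, of the 25 mitosis genes in all cells of run 2 (left) and in the progenitor and glia gate (right), with 1 point per run. In all cells 11 tested genes are called higher at P0, whereas in the gate 9 are called higher at E14 and Mki67 stands at 169 and 201.

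Some transcription factors of late development were higher at P0. Of 13 tested members 5 rose, 0 fell and 8 were not called over all cells, with a median of 0.78. Of all tested genes 14.54% rose, and of the 12 members at 10 CPM in both runs 4 rose. The NFI genes, whose products promote gliogenesis and the maturation of late-born neurons, were among the members. In the neuron gate 3 of 12 rose and in the progenitor and glia gate 4 of 13, beside 10.1% and 17.9%, and 0 fell. Over all cells Nfix rose from 65.8 to 336 CPM, Nfia from 76.1 to 279.9 and Nfib from 192 to 545, while Nfic stood at 19.7 and 29.7. Nfix rose in the neuron gate from 48.1 to 183 CPM, a ratio of 3.81 (3.70 to 3.93), and Nfib from 157 to 325. Nfia, at 57.0 and 86.1, was not called there. Nfix and Nfia rose in the progenitor and glia gate, from 259 to 540.5 and from 313 to 632 CPM, and Nfib stood at 641 and 867. Klf9, a factor induced by thyroid hormone and glucocorticoids, rose from 5.25 to 37.6 over all cells and from 27.1 to 110.1 inside that gate, with 3.78 and 4.47 in the neuron gate.

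Genes of receptors and ion channels were in part called higher at P0 in both gates. Inside the neuron gate 12 of 16 tested glutamate receptor genes rose and 0 fell, with a median of 1.5 beside 0.13 for all genes tested there, and 11 of 18 rose over all cells. With 10 CPM in both runs these were 7 of 11 and 5 of 10. The NMDA receptor subunit gene Grin2b, which marks young synapses, rose inside the gate from 60.8 to 227 CPM, a ratio of 3.74 (3.64 to 3.84). The shared subunit Grin1 rose from 12.2 to 29.8 and Grin3a from 15.2 to 69.5. Grin2a, the subunit of mature synapses, went from 10.5 to 22.01 CPM, just past the 2-fold threshold. The AMPA receptor gene Gria2 rose from 269 to 675 and Gria3 from 6.94 to 37.0, and the metabotropic receptor gene Grm5 from 20.8 to 117. Grm3 led the list over all cells, from 2.40 to 24.8 CPM. Levels of different genes here are in CPM and not per length.

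Receptors for GABA and glycine rose in 12 of 15 tested cases inside the neuron gate, with a median of 1.58, and fell in 0, and rose in 6 of 9 with 10 CPM in both runs. The metabotropic subunit gene Gabbr2 rose there from 6.46 to 51.3 CPM, Gabrg1 from 3.10 to 29.0, Gabrb1 from 15.7 to 96.3 and Gabrg3 from 10.8 to 51.1. The alpha subunits Gabra2 and Gabra5, typical of the developing brain, rose from 41.1 to 127 and from 24.8 to 76.3. In the progenitor and glia gate 11 of 12 tested glutamate receptor genes rose, with a median of 2.18. For GABA and glycine receptors 7 of 8 rose there, with a median of 2.89, beside 17.9% of all genes tested there. Only 2 of the former and 1 of the latter had 10 CPM in both runs, so most of these calls were in part fixed by the minimum. Grm5 went from 1.46 to 177 CPM in the progenitor and glia gate and Gabbr2 from 0.626 to 97.5. The E14 values of that gate rest on 7 and 3 UMIs, so that no ratio is read.

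The response of a neuron to GABA depends on the chloride transporters, the importer Slc12a2 and the exporter Slc12a5. The exporter rose in the neuron gate from 29.8 to 92.6 CPM, a ratio of 3.11 (2.99 to 3.23). The importer stood at 12.7 and 20.3 CPM there, a ratio of 1.60 (1.49 to 1.72), and was called only over all cells (13.7 to 29.5). The beta subunit gene Atp1b1 of the sodium pump rose in the neuron gate from 154 to 372 CPM, and its glial counterpart Atp1b2 rose in the other gate from 20.03 to 256. Of the whole list 5 of 9 tested members rose over all cells and 0 fell, with a median of 1.06, and 4 of 8 rose in the neuron gate and 5 of 9 in the other.

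Voltage-gated channels rose in 16 of 26 tested cases inside the neuron gate and fell in 0, with a median of 1.18, and rose in 11 of 20 with 10 CPM in both runs. The sodium channel gene Scn2a rose there from 32.0 to 121 CPM and its early counterpart Scn3a from 107 to 223. The potassium channel gene Kcnma1 rose from 25.1 to 95.1, Kcnq3 from 11.4 to 37.3, the channel partner gene Kcnip4 from 6.60 to 27.1, and the calcium channel gene Cacna1c from 4.89 to 19.3. In the progenitor and glia gate 13 of 17 voltage-gated channel genes rose, with a median of 2.10, all from under 10 CPM at E14. Of the 3 with 10 CPM in both runs 0 rose, so the count of 13 was in part fixed by the minimum. Of 26 presynaptic genes tested in the neuron gate 6 rose and 0 fell, beside 10.1% of genes there, with a median of 0.56. Over all cells 6 of 26 rose, beside 14.54% of all tested genes, with a median of 0.22, near the all-gene value. In the progenitor and glia gate 12 of 21 rose, beside 17.9%, or 6 of 14 with 10 CPM in both runs. The granule protein gene Scg2 of neurons also went from 5.22 to 35.7 CPM in that gate, while Syt1 stood at 41.5 and 40.6. The part of free neuronal RNA in the receptor, channel and presynaptic calls of that gate was not tested. Syn2 rose in the neuron gate from 24.3 to 90.1 CPM, Sv2c from 4.19 to 20.4 and the active zone gene Rims1 from 22.3 to 75.3. The fusion genes Snap25 (120.0 and 182) and Syt1 (275 and 398) were not called there. Of 14 postsynaptic genes 4 rose over all cells and 4 of 14 in the neuron gate, beside 14.54% and 10.1% of all genes. Over all cells they were led by Nrgn, a calmodulin-binding protein gene, from 3.00 to 15.8 CPM.

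Some genes of young neurons were lower at P0. Of 25 tested members 0 rose and 7 fell over all cells, with a median of -0.60, and inside the neuron gate 2 of 23 fell, with a median of -0.19. Both members that fell in the gate were surface or secreted protein genes of newborn neurons, Igfbpl1 from 669 to 207 CPM and Cd24a from 1218 to 404. The tubulin gene Tuba1a and the factor Sox11 fell over all cells, from 12954 to 6004 and from 3141 to 1452 CPM, and stood at 13800.2 and 7822 and at 3177 and 1766 inside the gate. Gap43, the growth cone protein gene, did not pass the rule there at 1390.1 and 2154. Of the 11 tested proneural genes 4 fell and 1 rose over all cells, beside 2.46% and 14.54% of all tested genes, with a median of -0.70. Of 8 at 10 CPM in both runs 2 fell and 1 rose, and in the neuron gate 4 of 11 fell and 0 rose. Neurod6 fell over all cells from 20.5 to 5.26 CPM, but stood at 5.70 and 5.495 among Y-marked cells. Insm1 fell from 123 to 37.1 CPM and Hes6 from 193 to 86.3. The antiproliferative gene Btg2 rose from 84.6 to 303, but not in the runs numbered 1 (117 and 88.2), where Neurod6 also went the other way (6.90 and 8.33).

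**Figure D3:**
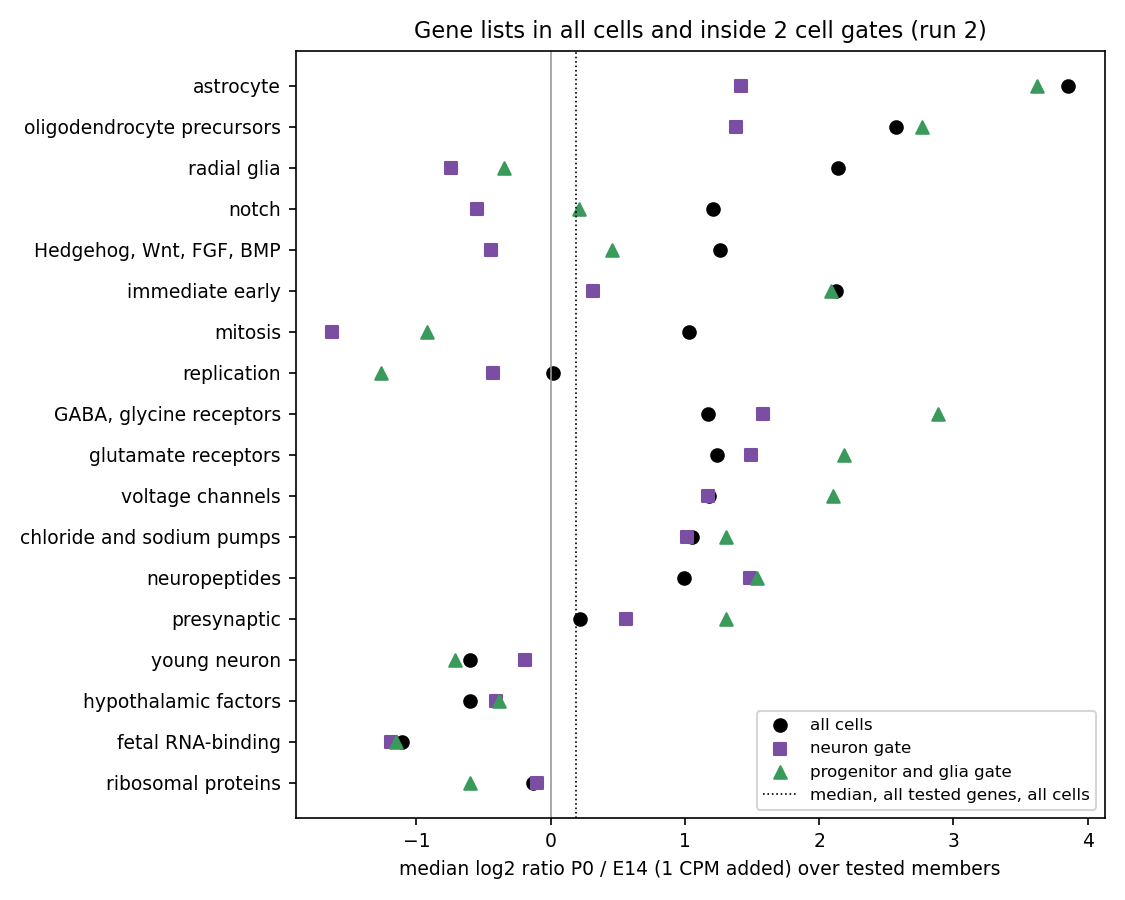
Median log2 ratio of P0 over E14 (1 CPM added) over the tested members of 18 gene lists, in all cells of run 2, in the neuron gate and in the progenitor and glia gate, with the all-gene median of 0.19 as a dotted line. The mitosis list stands at 1.03 in all cells, -1.63 in the neuron gate and -0.92 in the progenitor and glia gate.

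Neuropeptide genes differed by gene. Inside the neuron gate 13 of 20 tested precursors rose and 2 fell, with a median of 1.49, and of 13 at 10 CPM in both runs 6 rose and 2 fell. Avp, the precursor gene of vasopressin, rose there from 44.8 to 445 CPM, a ratio of 9.95 (9.68 to 10.2). Over all cells its ratio was 7.41, and it went from 39.0 to 167 CPM among Xist-marked and from 80.03 to 388 among Y-marked cells. Oxt, the precursor gene of oxytocin, rose in the neuron gate from 0.313 to 31.3 CPM. The appetite peptide genes Agrp and Npy of the arcuate nucleus rose from 0.989 to 24.6 and from 22.7 to 81.0 CPM. Cck rose from 6.48 to 86.0, Gal from 17.4 to 49.3, Tac1 from 26.3 to 83.3 and Penk from 3.84 to 18.9. Ghrh rose in the gate from 21.4 to 63.3 CPM, with 92.7% of its P0 UMIs over all cells in the 1% of cells with most of them. Over all cells Ghrh was not called, and it went from 20.4 to 82.3 CPM among Xist-marked but from 18.4 to 22.8 among Y-marked cells. The satiety peptide genes Pomc and Cartpt fell, from 111 to 29.4 and from 105 to 26.5 CPM, ratios of 3.77 (3.60 to 3.96) and 3.96 (3.77 to 4.16) in favour of E14. Sst (132 and 111), Pmch (92.9 and 176), Trh (14.3 and 26.5) and Pnoc (58.2 and 52.5) were not called.

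The 1% of cells with most UMIs of a gene held 98.1% of all Avp UMIs at E14 and 84.4% at P0, and 96.9% and 93.4% of those of Pmch. Pomc was less concentrated, at 74.1% and 52.1%, and its UMIs were found in 18.9% of E14 and 13.01% of P0 neuron-gated cells (6.84% and 4.21% thinned to 2500 UMIs), beside 17.7% and 11.97% in the other gate, where its level was 22.5 and 13.4 CPM. These shares hardly differ between the gates, so they are read as background and only the levels are compared. An Avp UMI was found in 1.84% of E14 and 40.3% of P0 neuron-gated cells, or 0.727% and 13.1% thinned to 2500 UMIs. In the progenitor and glia gate, where the gene should be silent, the shares were 0.778% and 38.4%, the latter 13.1% thinned, and the levels 0.835 and 50.04 CPM. The share of cells with an Avp UMI at P0 is therefore read as background and not as expression, while the sum of UMIs rests on the cells with most of them. Oxt had 0.209 and 5.83 CPM in that gate. Scg2, a granule protein gene of peptide-secreting cells, rose in the neuron gate from 123 to 452 CPM. It was the only 1 of 12 tested granule genes called over all cells.

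**Figure D4:**
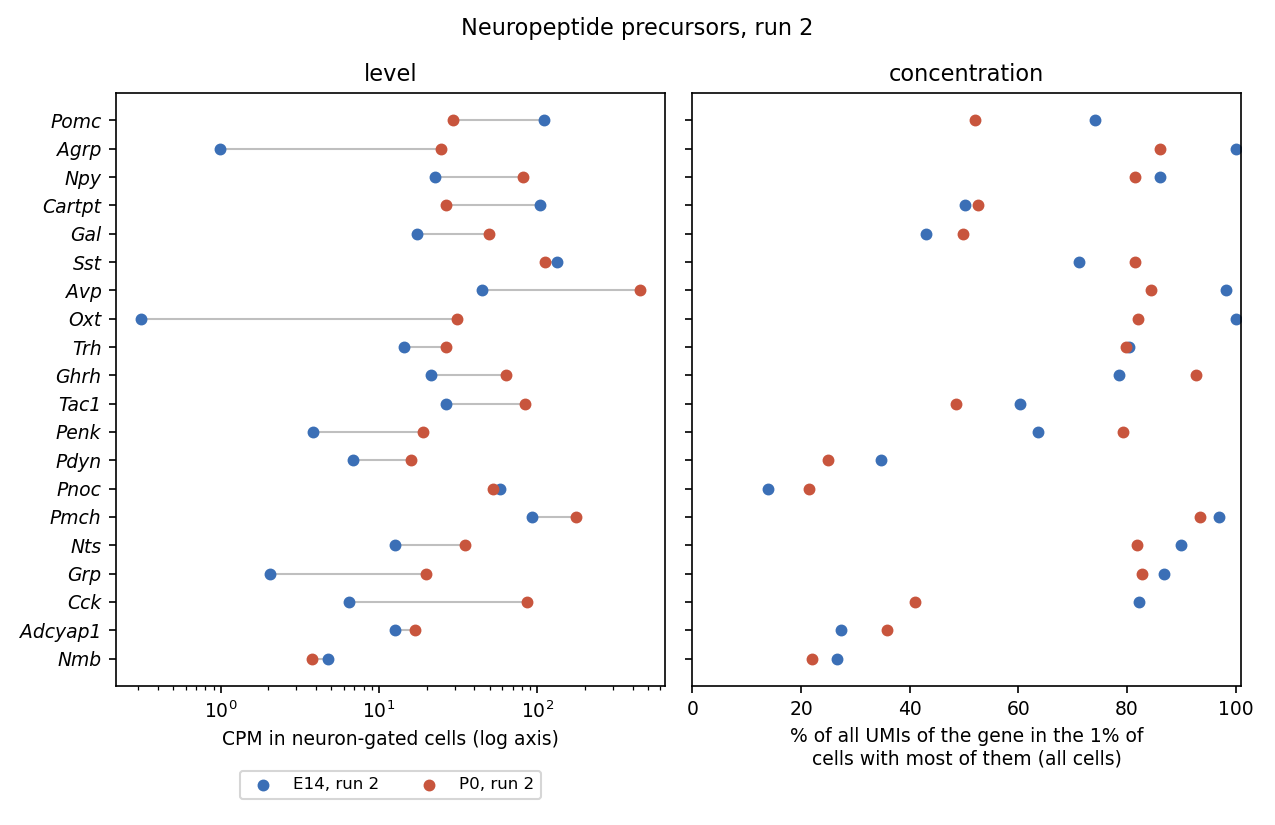
Left, CPM in neuron-gated cells on a log axis for 20 neuropeptide precursor genes, with 1 point per run. Right, the percentage of each gene's UMIs held by the 1% of cells with most of them, over all cells. Avp goes from 44.8 to 445 CPM with 98.1% and 84.4% of its UMIs in those cells, and Pnoc is the most evenly spread at E14 with 13.99%. Agrp and Oxt had UMIs in under 1% of cells at E14, so that their points there could only stand at 100%.

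Among transcription factors that pattern hypothalamic neurons more were called lower than higher at P0. Of 64 tested members 18 fell, 7 rose and 39 were not called over all cells, with a median of -0.60. Of all tested genes 2.46% fell and 14.54% rose. Inside the neuron gate 16 of 64 fell and 8 rose, beside 2.68% and 10.1% of genes there, with a median of -0.41. With 10 CPM in both runs 10 fell and 5 rose of 51 over all cells, and 9 fell and 4 rose of 49 in that gate. The share that rose is not far from that of all genes, so no group rise is read. Otp fell in the gate from 465 to 92.4 CPM, a ratio of 5.03 (4.90 to 5.17) in favour of E14. An Otp UMI was found in 42.4% of E14 and 19.01% of P0 neuron-gated cells, or 31.0% and 10.9% thinned to 2500 UMIs, beside 16.3% and 6.26% in the other gate. Fezf1 and Nr5a1, genes of the ventromedial nucleus, fell from 95.4 to 26.8 and from 13.6 to 3.19 CPM. Among the 8 that rose in the gate were Foxb1, a mammillary gene, from 18.1 to 83.6, Tbx3, an arcuate gene, from 9.40 to 43.9, Lhx1, a gene of the suprachiasmatic nucleus, from 35.1 to 127, and the nuclear receptors Rora and Rorb, from 11.48 to 42.7 and from 29.6 to 106. Over all cells of the runs numbered 1 Lhx1 went from 118 to 38.5 CPM and Nr5a1 from 1.53 to 2.36, opposite to run 2.

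Some RNA-binding and chromatin genes were lower at P0. Of 5 tested genes of the fetal RNA-binding list 3 fell and 0 rose, with a median of -1.11, all 3 from 10 CPM or more to less, and neither of the other two was called. Igf2bp1, which binds and stabilises fetal messages, fell from 42.6 to 8.48 CPM, and along the series it stood at 253 in run 2 of E11 and 0.528 at P7. It fell inside both gates, from 39.2 to 4.83 and from 56.8 to 15.2 CPM. Lin28b, which blocks maturation of the let-7 microRNAs, fell from 19.997 to 8.72 CPM. Arid3b, listed with them although it encodes a DNA-binding protein, fell from 12.4 to 4.00. Of 8 tested genes of DNA methylation and Polycomb enzymes 1 rose and 1 fell over all cells and in the neuron gate, beside 14.54% and 2.46% of all tested genes over all cells, so that no group result is read. The Polycomb methyltransferase gene Ezh2 fell from 225 to 109, and the demethylating enzyme gene Tet1 rose from 24.1 to 55.6 and in both gates. In the BAF remodelling complex 1 of 4 tested progenitor subunits and 2 of 4 neuronal subunits fell over all cells and 0 rose. Of all tested genes 2.46% fell, and with 4 members a list no group result is read. Those that fell were the progenitor subunit Actl6a (112 to 55.1 CPM) and the neuronal subunits Actl6b (238 to 109) and Dpf1 (128 to 58.9). In the neuron gate 2 of 4 progenitor subunits and 0 of 4 neuronal subunits fell, beside 2.68% of genes there. Actl6a fell there from 102 to 42.7, while Actl6b stood at 261 and 159.

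Histone cluster genes formed a list made after the E14 leaders were seen, so its counts describe and support nothing. Of 65 such genes 14 were tested, of which 10 were higher at E14 and 2 at P0, with a median of -1.48. Inside the neuron gate 11 of 14 fell, with a median of -2.49. Hist1h1c fell there from 166 to 8.69 CPM, a ratio of 19.1 (17.6 to 20.8) in favour of E14, and Hist1h2bc from 319 to 21.6. In the progenitor and glia gate Hist1h1c stood at 97.0 and 54.6. The E14 run 2 level of Hist1h1c also stood above these other runs, at 167 CPM beside 14.6 in E14 run 1, 59.4 in E11 run 2 and 59.99 at P7. Replicative histone messages lack a poly(A) tail in dividing cells, so a chemistry that captures polyadenylated RNA counts them only in part.

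Immediate early genes, which neurons and glia switch on within minutes of a stimulus, were in part higher at P0. Of 18 tested members 13 rose and 0 fell over all cells, with a median of 2.12, and of 12 at 10 CPM in both runs 7 rose. In the progenitor and glia gate 12 of 16 rose with a median of 2.09, and in the neuron gate 4 of 14 with a median of 0.31. Fos rose from 135 to 909 CPM over all cells, from 319 to 2179 in the progenitor and glia gate and from 129.7 to 296 in the neuron gate. Egr1 rose from 32.0 to 412 CPM over all cells, from 55.1 to 956 in the progenitor and glia gate and from 31.7 to 124 in the neuron gate. Zfp36, which destabilises cytokine messages, and the cytokine feedback inhibitor Socs3 rose in the progenitor and glia gate, from 5.63 to 120.0 and from 41.9 to 264, and stood at 1.004 and 2.60 and at 10.4 and 9.87 in the neuron gate. Such genes also respond to dissociation and sorting, whose part was not tested. In the runs numbered 1 Fos had 7.41 CPM at E14 and 205 at P0, Zfp36 0.511 and 3.72, and Socs3 5.11 and 14.9. Over all cells of P0 run 2 Zfp36 had 39.7 CPM and Socs3 92.8. The P0 levels of Fos, Zfp36 and Socs3 were thus lower in run 1 than in run 2 at the same age.

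Imprinted genes differed between the gates. Of 27 tested members 5 fell and 3 rose over all cells, beside 2.46% and 14.54% of all tested genes, with a median of 0.14 beside 0.19. In the neuron gate 2 of 27 fell and 4 rose, beside 2.68% and 10.1% of genes there. The median there was 0.33 beside 0.13 for all genes. A fall of 9 of 26 was seen inside the progenitor and glia gate, beside 5.22% of genes tested there, led by the deiodinase gene Dio3 from 66.1 to 1.97 CPM and the Notch-like gene Dlk1 from 1499 to 236. Over all cells Cdkn1c, a cell cycle inhibitor gene, fell from 572 to 234 and Nnat from 10036 to 4476, while Zim1 and Impact rose, from 7.34 to 30.3 and from 15.7 to 38.4. Kcnq1ot1 went from 227 to 515 CPM, but from 153 to 126 in the runs numbered 1. None of 76 ribosomal protein genes was called over all cells, and their median was -0.14. Of 89 nuclear respiratory chain genes 1 rose and 1 fell, and none of 19 splicing genes was called. Cholesterol synthesis genes rose in 2 of 18 cases, beside 14.54% of all tested genes. Of 17 glycolysis genes 6 rose over all cells, beside 14.54% of all tested genes, and 2 of 15 in the neuron gate, beside 10.1%. In that gate Pfkp went from 20.3 to 89.2 CPM and the glucose transporter gene Slc2a3 from 7.09 to 27.9.

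The direction of named genes was compared across other choices of cells. Since the runs differed in their sexes, the comparison was repeated among Xist-marked and among Y-marked cells, which come from different animals. All 150 genes named in the text and called over all cells kept their direction in both sets of cells. For 5 of them the ratio in at least 1 of these sets differed by over 1.5 times from that over all cells. On the log2 scale Avp had 2.86 over all cells, 2.07 among Xist-marked and 2.26 among Y-marked cells, Crym 2.92, 2.82 and 2.31, and Sparcl1 6.04, 6.19 and 6.67. The other 2 were Neurod2, with -3.13, -3.49 and -1.96, and Neurod6, with -1.78, -2.27 and -0.04, so that its fall was not seen among Y-marked cells. The 150 also kept their direction with every cell weighing the same, in cells of 6000 to 12000 UMIs, in cells with a tdTomato UMI and without called doublets. They had been called by size in these same 2 runs, and the last 2 sets keep nearly all cells. That outcome was therefore largely fixed in advance and is not read as support. Of the 150 named genes called over all cells of run 2, 132 kept their direction in the runs numbered 1 and 18 went the other way. The E14 run numbered 1 had 356 cells, of which 96.3% were Xist-marked, and in the P0 run numbered 1 the share was 0.245%, so that pair differs fully in sex as well as in age.

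**Figure D5:**
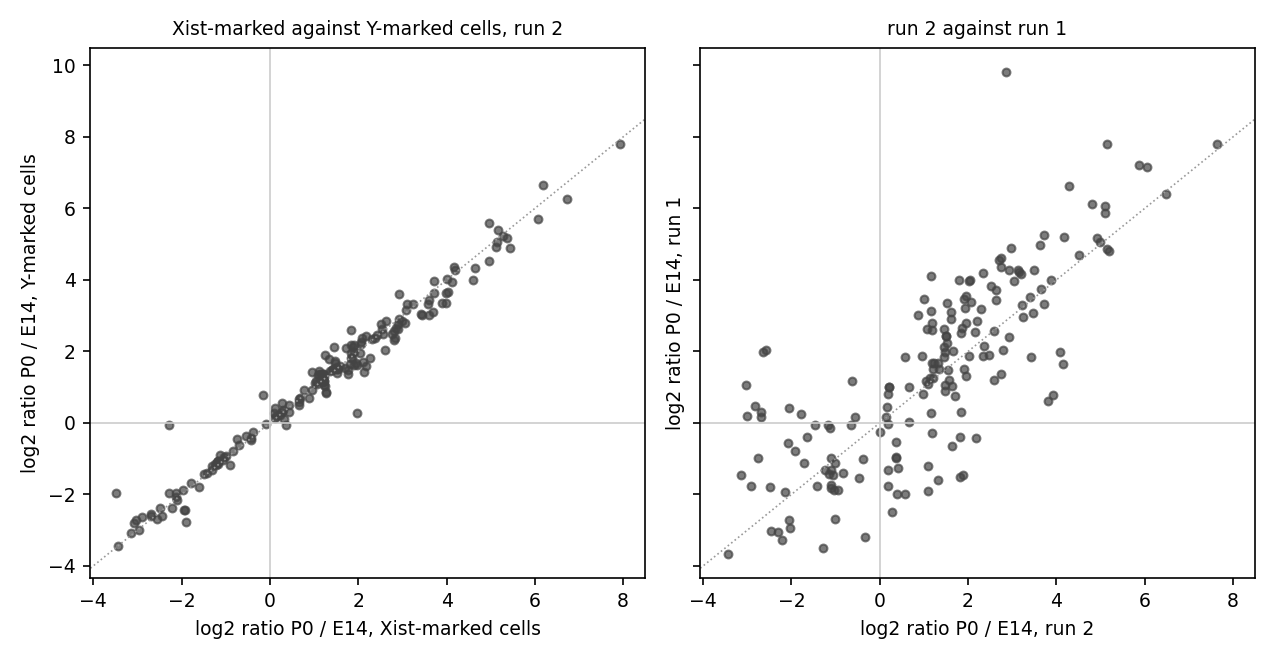
Log2 ratio of P0 over E14 of the genes named in the text, without the X- and Y-linked sex genes. Left, Xist-marked cells on the horizontal and Y-marked cells on the vertical axis, both of run 2; right, run 2 on the horizontal and run 1 on the vertical axis, with the dotted line at equality. Points off the right-hand diagonal below 0 on the horizontal and above 0 on the vertical axis include Slc16a6 and Hmox1, and those in the opposite corner include Top2a and Lhx1.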

How the data were processed

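The series holds 1 sample per age, and the values are counts of UMIs per gene and cell in 1 table of the whole series, deposited by the authors without normalization. The submitters' processing notes name Cell Ranger 3.0.2, Seurat and the build mm10, with no role for each. Cells had been filtered before deposit. A cell's age and run come from its name. UMIs were summed per gene and run and scaled to CPM, and genes with at least 10 CPM in either run were compared, with 1 CPM added to both sides and a threshold of 2-fold. With 1 library a side, no test was made. Intervals at 95% are exact Poisson for levels, exact conditional binomial for ratios and Clopper-Pearson for shares, and cover counting error only. A gene with 3 UMIs or fewer on a side got no ratio. In all, 51 lists were described by counts and medians. The members and lists were chosen with earlier results of these data known.

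Named genes were the 12 with the largest ratio in each direction and, in each list, up to 4 called members per direction with the largest ratio, plus members of lists with opposing roles at 10 CPM or more. Mitochondrial, ribosomal protein, hemoglobin and sex genes were not eligible. Others were named for their role or for a change inside a gate, after their values were seen. Some genes that the rule names are not reported here. Promoters came from RefSeq windows of GRCm38.p6. Alternatives changed scaling, thresholds, cells or runs. The ratio and interval code was tested on simulated counts. Python 3.11.15, numpy 2.4.6, scipy 1.17.1, pandas 2.3.3, Scanpy 1.11.5 (with Scrublet) and matplotlib 3.10.9 were used.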

Additional observations from a re-analysis of the deposited data

How the results depend on the processing

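The counts of genes at least 2-fold higher at P0 and at E14, 1467 and 248, moved with the threshold: 348 and 131 at 50 CPM, 2792 and 839 at 1.5-fold, and 617 and 61 at 3-fold. A minimum of 2 CPM gave 2614 at P0, median-ratio scaling 416 at E14, and the runs numbered 1 gave 2542 and 769. The count of lists with a median of at least 1 was 18, and 11 with 5 CPM added. With limits of 90% and 10%, the neuron gate held 70.7% at E14 and 39.9% at P0, and the progenitor and glia gate 1.63% and 28.0%. With cells thinned to 2500 UMIs, the neuron gate held 84.8% and 53.8%. In the runs numbered 1 the log2 ratio turned for 18 of 150 called named genes: Asb2 1.05, Trim17 0.21, Hist1h2ac 0.48, Hist1h1c 0.31, Hist1h2bc 0.16, Hmox1 1.97, Slc16a6 2.03, Nr5a1 0.41, Neurod6 0.24, Mki67 -0.43, Prc1 -1.50, Hmmr -1.46, Kif11 -0.64, Top2a -1.92, Gins2 -1.21, Lhx1 -1.59, Btg2 -0.40 and Kcnq1ot1 -0.29. The mitosis median there was -1.50. The cause was not tested. None of the 150 turned under the alternatives that change the cells or their weight, which draw on the same cells these genes were called from. The other scaling, minimums and added CPM cannot turn a gene past 2-fold. No paired analysis was possible because each age has 1 sample, and runs of a sample, which the labels do not explain, were not counted as replicates. Depth limits genes of few UMIs, and the counting intervals do not cover differences between libraries.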

Other observations

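Axon guidance genes were a further group. Of 38 tested members 8 rose and 0 fell over all cells, beside 14.54% and 2.46% of all tested genes, with a median log2 ratio of 0.35 beside 0.19. In the progenitor and glia gate 14 of 34 rose and 3 fell, beside 17.9% and 5.22%. The contact protein gene Cntn1 went from 11.06 to 68.0 CPM, the semaphorin gene Sema6d from 15.5 to 73.2 and the netrin receptor gene Unc5d from 13.1 to 49.6. Inside the neuron gate Cntn1 went from 11.9 to 73.5 CPM. Ntn1, the netrin ligand gene, went from 5.96 to 18.0 CPM over all cells and stood at 46.3 and 48.0 in the progenitor and glia gate.

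Of 17 hormone receptor genes 7 were tested. Those called higher at P0 had all been under 10 CPM at E14, so their count supports nothing: Prlr, the prolactin receptor gene, went from 1.87 to 12.2 CPM, Ghr, the growth hormone receptor gene, from 2.07 to 10.7, and Nr3c1, the glucocorticoid receptor gene, from 8.56 to 32.2. The same holds for the clock genes Nr1d2, which went from 4.27 to 10.7 CPM, and Arntl, from 8.44 to 18.8, and none of the 5 clock genes at 10 CPM in both runs was called. Of 10 tested transmitter genes 3 rose and 1 fell, beside 14.54% and 2.46% of all tested genes, and 1 of 7 rose with 10 CPM in both runs. The glycine transporter gene Slc6a9 rose from 1.51 to 20.8 CPM, and Ddc, which makes monoamines, fell from 36.7 to 11.03.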
